A study of Mus musculus with 4 samples.

Results

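The cytosolic heat shock proteins described here are 8 genes, Hspa1a, Hspa1b, Hspa8, Hsp90aa1, Hsp90ab1, Hsph1, Dnajb1 and Hspb1, which were taken by symbol from the 32285 genes of the count matrices. All 8 had a row of their own. The rule takes them as a family and uses no measured value, and 6 of them are treated as heat-inducible (Hspa1a, Hspa1b, Dnajb1, Hsph1, Hspb1 and Hsp90aa1) and 2 as constitutive (Hspa8 and Hsp90ab1). The study sequenced single cells of mouse tumours by the 10x Genomics droplet method, in which reads near the 3′ end of each transcript are counted once per molecule by a unique molecular identifier (UMI). There were 4 libraries from C57Bl6 mice aged 6 to 8 weeks: 2 from untreated tumours (Control 1 and Control 2) and 2 from tumours treated with enzyme nanocapsules (Nanocapsule 1 and Nanocapsule 2). The labels call the cells cancer cells, without giving the tumour line, the enzymes carried, the dose or the time after treatment. They do not say that the replicates were separate animals, so the p-values below measure only the spread between these libraries.

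Heat shock proteins are molecular chaperones, which hold unfolded proteins and help them to fold or be degraded. The inducible genes are switched on by the transcription factor HSF1, which binds repeated GAA units in their promoters when unfolded proteins accumulate, as after heat, oxidation or poisoning of the proteasome. The constitutive members do the same work in unstressed cells, and tumour cells as a rule carry large amounts of both HSP70 and HSP90 proteins. Because tissue dissociation is itself a stress, the inducible members are also among the genes that rise while a tumour is digested into single cells.

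Hspa1a and Hspa1b, both encoding the inducible HSP70, lie next to each other on mouse chromosome 17 and on the same strand. In the GRCm38 assembly, with GENCODE M21 annotation, Hspa1b (ENSMUSG00000090877) spans chr17:34956436-34959238 and Hspa1a (ENSMUSG00000091971) spans chr17:34969190-34972156, both on the minus strand, each with 1 exon and with 9951 bases between them. The 250 bases before each start are shown because this pair differed most between cell classes. They were taken from RefSeq for the GRCm38.p6 build, at chr17:34972157-34972406 for Hspa1a and chr17:34959239-34959488 for Hspa1b, and are written 5′ to 3′ on the gene's strand. The 250 bases before the start of Hspb1, which encodes the small heat shock protein HSP25, were at chr5:135887669-135887918 on the plus strand and follow for comparison. Capitals mark matches to GAANNTTC or TTCNNGAA, the pairs of facing GAA units that HSF1 recognises.
Hspa1a: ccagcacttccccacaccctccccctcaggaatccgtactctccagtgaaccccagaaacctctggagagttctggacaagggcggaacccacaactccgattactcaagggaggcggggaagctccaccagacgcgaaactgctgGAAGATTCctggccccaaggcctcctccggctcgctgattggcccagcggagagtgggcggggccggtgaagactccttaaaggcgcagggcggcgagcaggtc
Hspa1b: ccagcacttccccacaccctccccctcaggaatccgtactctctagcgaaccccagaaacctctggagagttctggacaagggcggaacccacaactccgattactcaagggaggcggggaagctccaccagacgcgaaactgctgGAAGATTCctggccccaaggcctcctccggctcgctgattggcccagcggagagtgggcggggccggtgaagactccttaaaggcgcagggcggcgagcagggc
Hspb1: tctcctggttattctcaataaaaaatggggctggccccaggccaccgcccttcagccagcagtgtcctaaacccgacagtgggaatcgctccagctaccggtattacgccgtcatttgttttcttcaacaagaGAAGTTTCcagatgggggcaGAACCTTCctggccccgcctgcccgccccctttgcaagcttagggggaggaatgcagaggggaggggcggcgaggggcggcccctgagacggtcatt

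The upstream sequences of Hspa1a and Hspa1b were the same at 247 of 250 bases (98.8%). The 3 differences, with Hspa1a first and positions counted from 1 at the 5′ end of the printed sequence, were C44T, T47C and T249G, and none fell in the marked unit. Each of the pair held 1 match to GAANNTTC, which began 104 bases before the start, and Hspb1 held 2. Among 32851 promoters of 300 bases (250 before and 50 after the start), 7.86% held GAANNTTC and 8.52% held TTCNNGAA, both of which read the same on the other strand, and 15.1% held either. The longer forms, GAANNTTC followed by NNGAA and TTCNNGAA followed by NNTTC, which contain both shorter forms and were searched on both strands, stood in 0.603% of promoters and in that of Hsph1. RefSeq promoters were matched for 5 of the 8 members, and those of Dnajb1 held none of these letters in that window. Hspa8, Hsp90aa1 and Hsp90ab1 were not matched.

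The ends of the transcripts, where this method counts, were distinct for the pair. Of the 451 stretches of 50 bases in the last 500 bases of the longest Hspa1a transcript, 0 occurred in any other GENCODE M21 gene, Hspa1b included, and the same held for Hspa1b. Dnajb1, Hsph1 and Hsp90aa1 likewise shared 0 of 451. Hspa8 shared 40.4% of its stretches with 10 other genes, Hspb1 16.0% with Hsp25-ps1 and Hsp90ab1 7.76% with Gm6368, so reads of these 3 members could in part be assigned to a copy or be dropped, and their levels are less certain.

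The libraries held 98943390 to 140491491 UMIs. Cells were called against the depth of each library's largest barcodes, which gave 7044 cells, and at 1500 UMIs, which gave 9548 and was used for the smaller immune cells. Of the called cells, 950 to 3137 per library were melanocytic tumour-like. All 10 melanocyte markers (Dct, Pmel, Mlana and others) were present in every library, at 12941 to 14424 UMIs per 1000000 UMIs of the class. This unit is called unscaled CPM below, and for clusters, groups of cells or shallow barcodes it is per 1000000 UMIs of those. The class was named by these same markers, so their presence is no separate support for the name. Their median depth was 38649 UMIs in Control 1, against 61686 to 90347 in the other libraries. Macrophage-like cells numbered 157, 189, 100 and 141 in Control 1, Control 2, Nanocapsule 1 and Nanocapsule 2, the order in which values are given throughout. B-like cells numbered 49, 44, 43 and 21. T-like cells numbered 13, 63, 37 and 49, which left Control 1 under the 20 set for a test. Between 0 and 13 cell barcodes were shared by any pair of libraries. In summed RNA of this kind, fewer cells that use a gene and less of its RNA per cell cannot be told apart.

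Hspa1a was almost absent from tumour-like cells and present in macrophage-like cells, whereas Hspa1b was found in both. With the 1500-UMI rule, tumour-like cells held 1 Hspa1a UMI in each of the 4 libraries, in totals of 81880613 to 126701556 UMIs. Hspa1b had 803, 482, 825 and 372 UMIs in the same cells. Macrophage-like cells, with totals of only 1455801 to 2923197 UMIs, held 318, 139, 283 and 223 UMIs of Hspa1a and 238, 112, 352 and 186 of Hspa1b. No library's macrophage-like level of either gene overlapped any tumour-like level.

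Hspa1a stood at 0.00789, 0.0122, 0.0108 and 0.0114 unscaled CPM in tumour-like cells and at 203.8, 68.3, 194 and 76.3 in macrophage-like cells. The ratio between the classes was smallest in Control 2, at 5589 with a 95% counting interval of 987 to 222318, and highest in Control 1, at 25824 with an interval of 4602 to 1.02e+06. These intervals, like all others given here, cover counting error only. For Hspa1b, with both classes scaled jointly by TMM, the macrophage-like level was 4.38 ± 0.69 log2 units above the tumour-like level (SD, n = 4 libraries), with single libraries at 4.76, 3.51, 5.09 and 4.17. On unscaled CPM the mean was 4.12. These are descriptions of levels, for which no test was made.

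**Figure D1:**
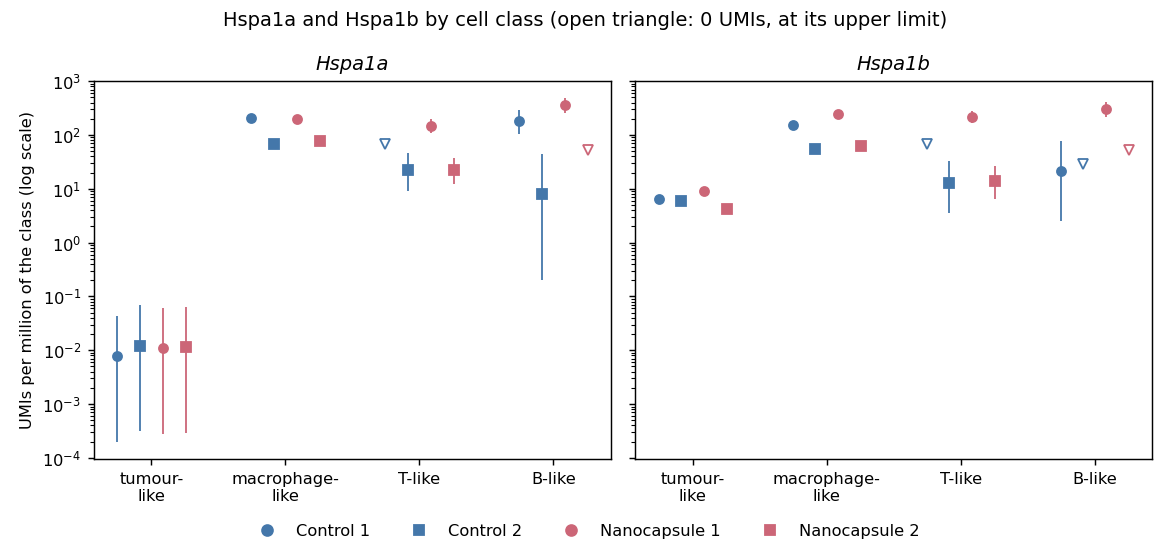
Unscaled CPM (UMIs per 1000000 of the class) of Hspa1a (left) and Hspa1b (right) in 4 cell classes, on a log scale, with 1 point per library and exact 95% Poisson intervals as bars; open triangles stand for 0 UMIs and are drawn at the upper limit of that interval. Hspa1a lies near 0.01 in tumour-like cells and between 68.3 and 203.8 in macrophage-like cells, while Hspa1b lies between 4.24 and 8.95 in tumour-like cells.

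The share of the pair's UMIs that were Hspa1a shows the same contrast without regard to depth. In tumour-like cells it was 0.124%, 0.207%, 0.121% and 0.268%, with a highest exact (Clopper-Pearson) upper limit of 1.48%. In macrophage-like cells it was 57.2%, 55.4%, 44.6% and 54.5%, with a lowest exact lower limit of 40.7%. Under the stricter rule tumour-like cells of Nanocapsule 1 held 11 Hspa1a UMIs, of which 10 came from 1 cell. That cell also held 61 UMIs of an 11-gene immune list. The list includes Ptprc, Lyz2 and Cd74, the pan-leukocyte, lysozyme and MHC class II invariant chain genes. The cell lay in a tumour-like cluster led by Iigp1, Igtp, Gbp6 and Gbp4. Its 61 UMIs were not split by gene, and their source was not tested. Barcodes under 100 UMIs, which hold mostly free RNA, carried Hspa1a at 1.76, 0.263, 1.45 and 1.72 unscaled CPM. Every tumour-like level was below these.

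Cells with much Hspa1b showed the same split. The limit of 10 Hspa1b UMIs used here was set after the values were seen. At that limit, 61 tumour-like cells of the 4 libraries held 980 Hspa1b UMIs and 0 Hspa1a UMIs, and 28 macrophage-like cells held 755 and 736, with Hspa1a in 27 of the 28. Tumour RNA in the 90 macrophage-like cells with an Hspa1a UMI and the 497 without was compared by 9 melanocyte markers (Gpnmb, which macrophages also use, left out). Summed over cells they stood at 831 unscaled CPM with a UMI and 2502 without. The median cell went the other way, at 274 with a UMI and 228 without. For Hspa1b, which tumour-like cells also carry, the sums stood at 2545 in the 67 cells with a UMI and 2234 in the 520 without. The medians there were 274 and 235. The part of tumour RNA in these levels was not tested.

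The macrophage-like levels rested on few cells. Hspa1a was seen in 24, 24, 27 and 15 macrophage-like cells, and a single Control 1 cell gave 149 of that library's 318 UMIs. Hspa1b was seen in 19, 11, 23 and 14, and single cells gave 113 of 238 UMIs in Control 1 and 123 of 352 in Nanocapsule 1. In tumour-like cells 1 Control 2 cell gave 106 of 482 Hspa1b UMIs.

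In tumour-like cells the inducible members did not differ between Nanocapsule and Control libraries beyond the spread within the groups. Levels here and in the other tests are CPM after TMM scaling. Hspa1b stood at 6.53, 5.59, 8.87 and 3.95 CPM, with both the highest and the lowest value among the Nanocapsule libraries. Its log2 fold was 0.08 ± 0.38 (SE, n = 2 libraries per group; edgeR quasi-likelihood test with Benjamini-Hochberg adjustment over all genes, adjusted p = 0.979). Hspa1a did not pass the filter on low counts, so 7 of the 8 members were tested in this class.

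Dnajb1, the J-domain partner that loads clients onto HSP70, stood at 63.8, 49.4, 58.3 and 44.7 CPM. The groups overlapped, and the log2 fold was -0.14 ± 0.17 (edgeR adjusted p = 0.877). Hsph1, the HSP110 that exchanges the nucleotide of HSP70, stood at 78.4, 72.3, 77.6 and 53.7 CPM. Only Nanocapsule 2 was apart, and the log2 fold was -0.20 ± 0.17 (edgeR adjusted p = 0.813).

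Hspb1, whose product binds unfolding proteins without ATP, had the widest spread. It stood at 16.1, 6.58, 12.7 and 4.08 CPM, so that Control 1 and Nanocapsule 1 were high and the other libraries low. The log2 fold was -0.44 ± 0.66 (edgeR adjusted p = 0.907). With the replicate number as a block the fold was -0.50 (edgeR adjusted p = 0.0361), in a fit that called 2.8% of all genes. The labels do not say that the numbers pair libraries. Hsp90aa1, the inducible HSP90, stood at 1890, 1704, 1734 and 1559 CPM, with a log2 fold of -0.13 ± 0.12 (edgeR adjusted p = 0.821). Its groups overlapped as well.

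Of the constitutive members, Hspa8, the cognate HSC70, stood at 1984, 1920, 1824 and 1561 CPM. It was the only member lower in both Nanocapsule libraries than in both Control libraries, with a log2 fold of -0.21 ± 0.12 (edgeR adjusted p = 0.720). Hsp90ab1, the constitutive HSP90 and the most abundant member, stood at 4667, 4119, 4331 and 3799 CPM. Its groups overlapped, and the log2 fold was -0.11 ± 0.13 (edgeR adjusted p = 0.872).

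Of the 7 members tested without a block, 0 passed an adjusted p of 0.05 with edgeR, 0 had an unadjusted p under 0.05 and 0 passed with DESeq2. Over all 16258 genes tested, 0% were called by edgeR, and 4% were nominally higher and 3.56% nominally lower. DESeq2 called 0.609%. Groups without overlap, which 1 of the 7 members showed, were seen for 38.5% of all genes, and 18.8% were lower in both Nanocapsule libraries. The median log2 fold was -0.14 over the members and 0.00 over all genes. Counts were simulated with libraries drawn independently and a spread per gene that edgeR pulls towards that of similarly abundant genes. Any deviation shared by same-numbered libraries was left out. Of genes given a log2 fold of 1, 76% were recovered in this class. At a log2 fold of 2 it was 96%, and 24 unchanged genes were called. The changed genes were drawn at random from the better counted ones. Recovery of the members themselves was not examined, and Hspb1 and Hspa1b had SEs of 0.66 and 0.38. UMIs of the 11-gene immune list stood at 18.4, 17.3, 26.6 and 58.3 unscaled CPM in the tumour-like cells, with all 11 genes present except Cd3e and Cd3g, which were at 0 in Control 1. The part of this RNA in the member levels was examined only by leaving out every cell with such a UMI, where 0 members were called too and the log2 fold of Hspb1 turned, to 0.16.

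**Figure D2:**
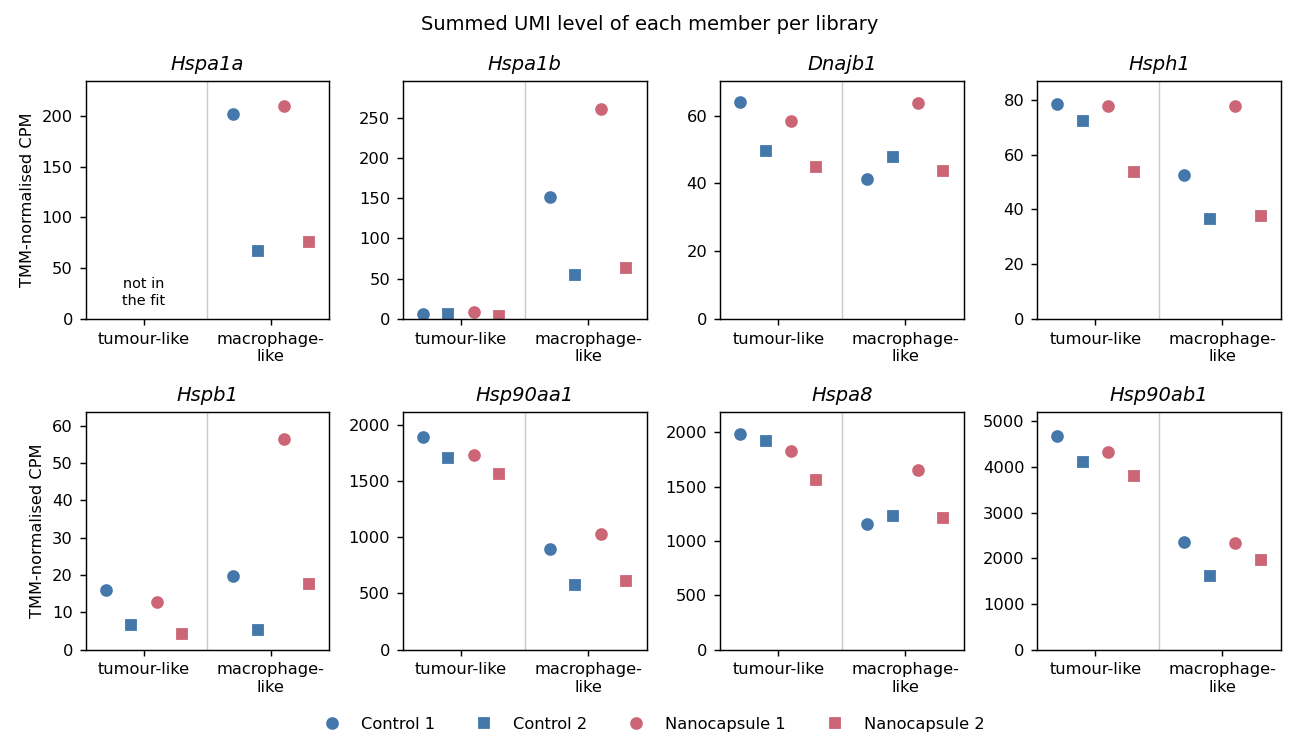
TMM-normalised CPM of each member in tumour-like (left of the line) and macrophage-like cells (right), 1 point per library, each axis from 0; the classes were scaled separately. The groups overlap in every panel except Hspa8 in tumour-like cells, where 1824 and 1561 CPM lie under 1984 and 1920, and Hspa1a was not tested in tumour-like cells.

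Over all called cells as 1 sum the picture was close to that of tumour-like cells, except for Hspa1a. It stood at 0.443, 0.682, 2.40 and 0.707 CPM, higher in both Nanocapsule libraries (log2 fold 1.47 ± 0.63, edgeR adjusted p = 0.648). Of its UMIs, macrophage-like cells gave 51 of 55, 59 of 60, 183 of 223 and 64 of 66. With edgeR 0 of 8 members were called and 0 had an unadjusted p under 0.05, and DESeq2 called 0. Of 16937 genes, edgeR called 0% and DESeq2 0.998%, and 4.29% were nominally higher and 3.63% nominally lower. Groups without overlap were seen for 2 members, Hspa1a and Hspa8, and for 39% of all genes.

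In macrophage-like cells all 8 members had a positive fold, and none passed the test. Hspa1a stood at 202, 67.0, 209.8 and 75.6 CPM, with a log2 fold of 0.08 ± 0.63 (edgeR adjusted p = 1). Hspa1b stood at 151, 54.0, 261 and 63.1 CPM, with a log2 fold of 0.65 ± 0.72 (edgeR adjusted p = 1). For both genes the libraries numbered 1 were high and those numbered 2 low, whatever the treatment.

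Hspb1 had the largest fold among the members. It stood at 19.7, 5.30, 56.3 and 17.6 CPM, and the log2 fold was 1.55 ± 0.75 (edgeR adjusted p = 1). The Nanocapsule libraries were the highest and the third of the 4, so the groups overlapped. The other members had log2 folds of 0.25 (Dnajb1), 0.35 (Hsph1), 0.15 (Hsp90aa1), 0.26 (Hspa8) and 0.12 (Hsp90ab1). Over the 8 members the median log2 fold was 0.26, beside 0.01 over all genes.

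With edgeR 0 of 8 members were called and 0 had an unadjusted p under 0.05, DESeq2 called 0, and the groups of all 8 overlapped. Over the 9885 genes tested, 0% were called by edgeR and 0.0202% by DESeq2, 0.87% were nominally higher and 0.84% nominally lower, 51.3% had a positive fold and 25.8% had groups without overlap. Melanocyte markers, all 10 present, stood at 4840, 1808, 3880 and 2874 unscaled CPM in these sums, and their part in the member levels was not tested. On simulated counts, 16% of randomly drawn genes were recovered at a log2 fold of 1 and 87% at 2, with 18 unchanged genes called. Changes of the smaller size were thus mostly not detectable here. Without Nanocapsule 1 the folds of 6 members turned negative, and Hspa1b went to -0.69 and Hspa1a to -0.82.

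**Figure D3:**
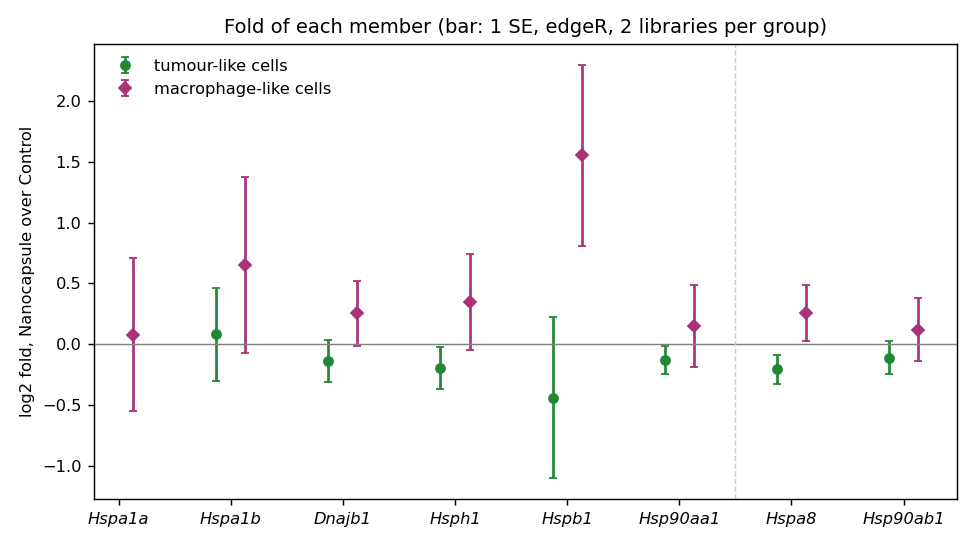
Log2 fold of Nanocapsule over Control for each member, with 1 standard error, from edgeR in tumour-like (circles) and macrophage-like cells (diamonds); the dashed line separates the 6 inducible from the 2 constitutive members. Folds lie between -0.44 and 0.08 in tumour-like and between 0.08 and 1.55 in macrophage-like cells, and none passed the test.

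The difference between the classes in the nanocapsule effect was tested itself, as an interaction over both sums of each library, with the library as a block. Hspb1 was the 1 member called, with a macrophage-like effect 2.07 ± 0.41 log2 units above the tumour-like effect (edgeR adjusted p = 0.0041). Of 16380 genes, 0.177% were called. For Hspa8 the difference was 0.45 ± 0.16 (edgeR adjusted p = 0.823), and the other 6 had an adjusted p of 1 by the same test. Leaving out Nanocapsule 1 took the adjusted p of Hspb1 to 0.0625, and leaving out Control 1 added Hspa1b (1.13, edgeR adjusted p = 0.0220).

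The Hspb1 result rested on few macrophage-like cells, namely 5, 2, 5 and 8 cells with 31, 11, 76 and 52 UMIs. In Nanocapsule 1 a single cell gave 36 of 76. Summed over those cells, the 9 melanocyte markers stood at 463, 439, 6178 and 4733 unscaled CPM, and over the macrophage-like cells without Hspb1 at 3475, 1065, 2477 and 2026. The median cell with Hspb1 held them at 434, 553, 276 and 150.1, so the high sums of the Nanocapsule libraries came from a minority of these cells. Free RNA, in barcodes under 100 UMIs, carried Hspb1 at 12.8, 3.16, 64.9 and 2.87 unscaled CPM, beside 19.9, 5.40, 52.2 and 17.8 in the macrophage-like sums. In Nanocapsule 1 the macrophage-like level was thus below that of the free RNA, and in the other 3 libraries above it. The part of tumour-cell RNA or free RNA in this difference was not tested.

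The other immune classes held few cells. In T-like cells Hspa1a had 0, 7, 42 and 14 UMIs and Hspa1b 0, 4, 62 and 9. Nanocapsule 1 stood apart, and its T-like sum also held 6 of 10 macrophage markers, at 472 unscaled CPM beside 4.75 to 25.5 in the other libraries, with C1qb, Adgre1, Mrc1 and Ms4a7 at 0. Tumour-like sums under the stricter rule held all 10, at 584, 536, 558 and 490, so the summed list does not separate macrophage from tumour RNA. The part of either in the result was not tested.

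In B-like cells Hspa1a had 17, 1, 44 and 0 UMIs and Hspa1b 2, 0, 37 and 0. Of the 6 members that passed the filter there, 0 were called by edgeR, 0 had an unadjusted p under 0.05 and 0 were called by DESeq2, against 0.153% of 1955 genes by edgeR and 0.0512% by DESeq2. Nominally higher genes made up 2.51% and nominally lower ones 2.35%. Hspa8 was lower in both Nanocapsule libraries, at 1124, 1133, 986 and 879 CPM (log2 fold -0.27 ± 0.21, edgeR adjusted p = 0.985), and groups without overlap were seen for 34% of genes. NK-like and dendritic-like cells, of which there were 2 to 17 per library and class, held 0 UMIs of both HSP70 genes. Their totals were small, and in NK-like cells 0 UMIs allowed up to 39.4 to 117 unscaled CPM (exact 95% Poisson limit).

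Endothelial-like and fibroblast-like cells carried Hspb1 in every library. Endothelial-like cells, only 6, 22, 4 and 2 in number, held 591, 386, 93.4 and 28.3 unscaled CPM. Fibroblast-like cells held 118, 109, 48.6 and 109. With 2 to 26 cells per library, these values were not compared between treatments.

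The balance between inducible and constitutive members was almost the same in every tumour-like sum. The log2 ratio of the 6 inducible to the 2 constitutive members was -1.69, -1.72, -1.70 and -1.69, and the mean difference between Nanocapsule and Control was 0.01 (exact permutation test over libraries, two-sided, p = 0.667; with 2 against 2 libraries the smallest possible p is 0.333). Hsp90aa1 makes up nearly all of the inducible sum. With only Hspa1a, Hspa1b and Dnajb1 as inducible the ratio was -6.56, -6.78, -6.52 and -6.78, and the difference was 0.02 (exact permutation p = 1). Dnajb1 makes up most of that shorter sum, and alone it gave -6.70, -6.93, -6.72 and -6.91. Hspa1b alone gave -9.99, -10.1, -9.44 and -10.4, with both the highest and the lowest value in the Nanocapsule libraries.

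In macrophage-like cells the ratio was -1.36, -1.85, -1.23 and -1.91, a mean difference of 0.04 (exact permutation p = 1). The libraries numbered 1 were above those numbered 2 in both groups, by more than the groups differed. With the shorter inducible list the macrophage-like ratio was -3.16, -4.07, -2.90 and -4.12, above every tumour-like value of that measure.

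**Figure D4:**
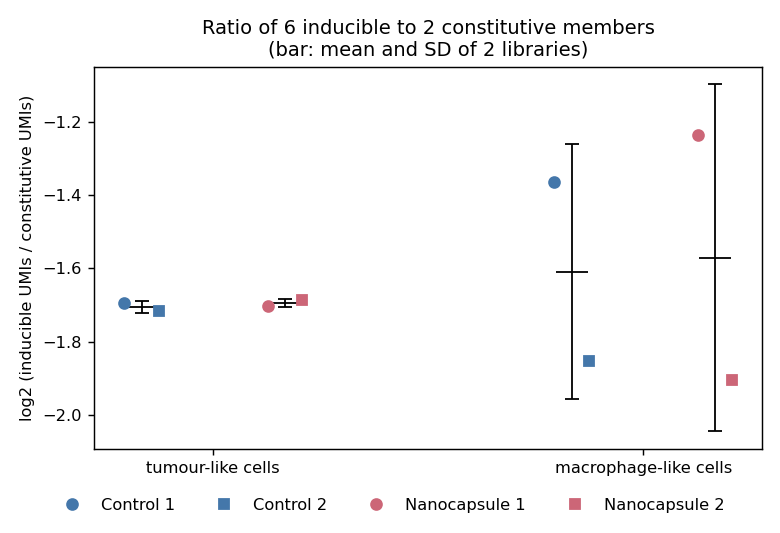
Log2 ratio of the summed UMIs of 6 inducible to 2 constitutive members, 1 point per library, with the mean and SD of each group of 2 as bars. Tumour-like libraries lie between -1.72 and -1.69, and macrophage-like libraries between -1.91 and -1.23 with both groups spread alike.

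Within the tumour-like cells Hspa1b, Hspb1 and Dnajb1 had their highest means over the 4 libraries in 2 of 12 clusters. The clusters were drawn without the members among the genes used. Cluster 2 was led by Nppb, Pgf, Pkp2 and Fosl2. Cluster 3 was led by Hspb1 and Hspa1b themselves, with Espn, Ankrd37, Ndrg1, Ddit4 and Hilpda, of which the last 4 are known as genes of the response to low oxygen. Both clusters were picked out after their member levels were seen, so what follows is a description.

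In clusters 2 and 3 together Hspa1b stood at 19.95, 40.8, 26.3 and 13.1 unscaled CPM, against 2.37, 2.39, 1.92 and 1.60 in the other tumour-like cells. Hspb1 stood at 44.5, 58.7, 36.7 and 15.1 inside and 7.17, 1.77, 3.10 and 1.21 outside. The outside cells include cluster 1 (led by Ahnak2 and Lgals3), where Hspb1 stood at 49.4, 15.5, 3.69 and 3.36. In Control 1 that was above cluster 2, at 40.1, and cluster 3, at 48.95. Dnajb1 stood at 124, 144, 110 and 81.6 inside and 43.6, 42.3, 37.1 and 35.7 outside. All 3 were higher inside in each of the 4 libraries.

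The constitutive Hspa8 went the other way, at 1390, 1437, 1453 and 1384 unscaled CPM inside and 2061, 2052, 1922 and 1638 outside. The Hspa8 values inside lay within a narrow range whatever the treatment, and the Nanocapsule values outside were the lower ones. Hsp90aa1 and Hsp90ab1 differed little, with ratios of inside to outside of 0.95 to 1.05 and 0.936 to 0.978. Hsph1 had ratios of 1.01, 0.978, 1.29 and 1.19.

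These clusters held 23.3%, 9.81%, 29.5% and 23.2% of the tumour-like cells but 70.7%, 62.6%, 84.1% and 68.6% of their Hspa1b UMIs. They also held 64.0%, 76.5%, 82.0% and 76.9% of the Hspb1 UMIs. Nanocapsule 1 had both the largest share of such cells and the highest Hspa1b level in the whole class. The log2 ratio of the mean Nanocapsule to the mean Control unscaled CPM of Hspa1b was -0.62 inside the clusters and -0.44 outside. The fold of 0.08 in the whole class is a TMM-scaled edgeR value, so the measures are unlike. Of the 476 Hspa1b UMIs of Control 2, a single cell of cluster 3 gave 106. The inside ratio leans on that cell, and it was not left out. The part of cluster shares in the class level was not tested.

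**Figure D5:**
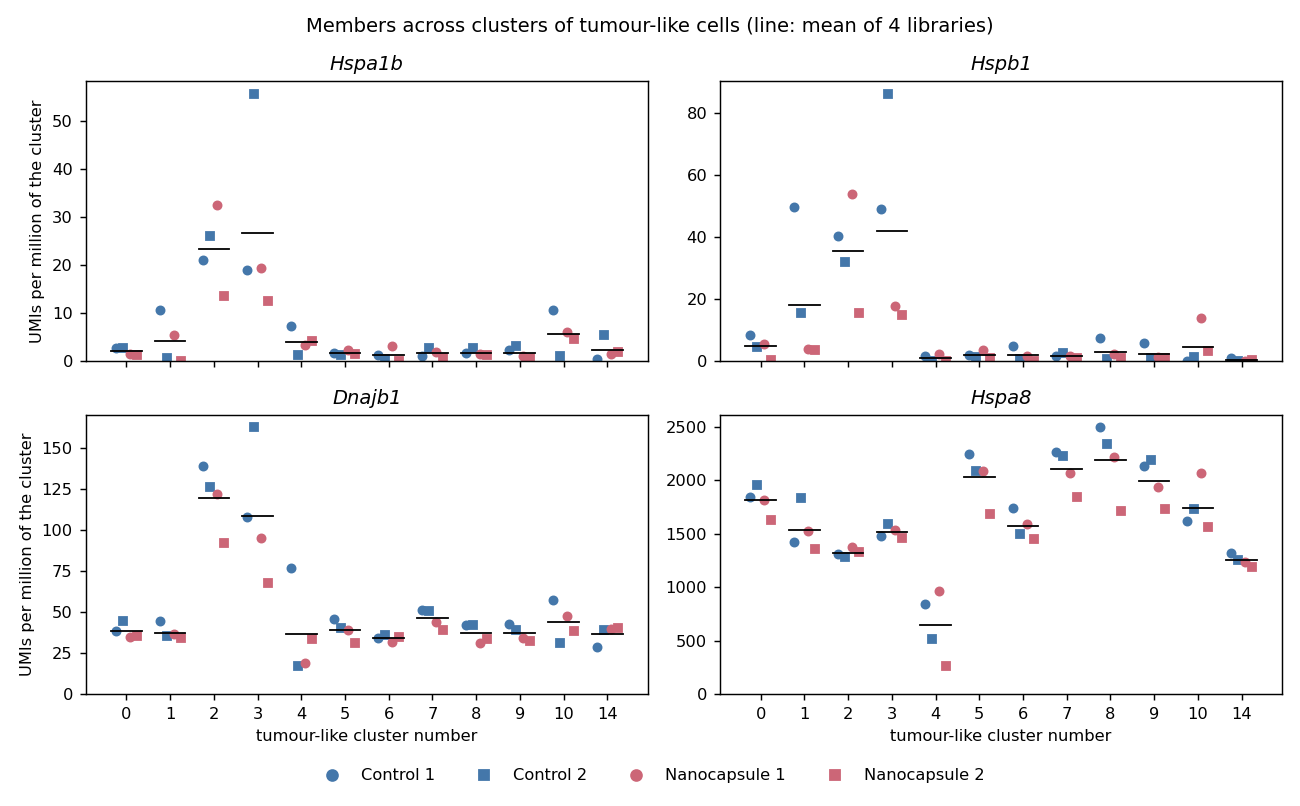
Unscaled CPM (UMIs per 1000000 of the cluster) of Hspa1b, Hspb1, Dnajb1 and Hspa8 in each cluster of tumour-like cells, 1 point per library, with the mean of the 4 libraries as a line. The means of Hspa1b, Hspb1 and Dnajb1 peak in clusters 2 and 3, at 23.3 and 26.6 for Hspa1b. That of Hspa8 peaks at 2193 in cluster 8. The Hspa1b mean of cluster 3 includes 1 Control 2 cell with 106 UMIs.

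Among all clusters, Hspa8 was highest in cluster 8 (Cdc20, Kif20a, Cenpa), at 2498, 2341, 2221 and 1713 unscaled CPM, followed by clusters 7 (histone genes) and 5 (Ung, Cdc6, Mcm3), all of which are led by genes of the cell cycle. The means of the 3 were 2193, 2101 and 2026, with SDs between libraries of 192 to 340. Within each library cluster 8 was above cluster 5, which stood at 2245, 2087, 2087 and 1685. Cluster 7, at 2264, 2230, 2069 and 1843, was below cluster 8 except in Nanocapsule 2. Hsp90aa1 followed the same clusters, with means of 2138 in cluster 8, 1942 in cluster 5 and 1821 in cluster 7. Hsp90ab1 was highest in cluster 6 (Trp53inp1, Cdkn1a), at 4587 ± 395 (SD, n = 4), and cluster 5, at 4505 ± 230 (SD, n = 4), did not differ from it beyond that spread. Hspa8, Hsp90aa1 and Hsp90ab1 were lowest in cluster 4 (Gm26917, Neat1), whose cells were also the shallowest of the 12.

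Per cell, the members ranged from nearly always found to rarely found. With every tumour-like cell thinned to 8000 UMIs, which left out no cell, Hspa8, Hsp90aa1 and Hsp90ab1 were found in at least 99.4% of cells in each library. Hspa1b was found in 3.95%, 2.55%, 5.41% and 2.63%, and Hspb1 in 3.89%, 2.45%, 3.25% and 2.11%. Dnajb1 was found in 29.1% to 31.9% and Hsph1 in 28.9% to 42.0%.

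For cells with a UMI of Hspa1a or Hspa1b, the mean share was 0.80 percentage points higher in the Nanocapsule libraries (exact permutation p = 0.667 over libraries), with values of 3.95%, 2.55%, 5.48% and 2.63%. Unthinned, the difference was 1.65 points (exact permutation p = 0.667).

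Across thinned tumour-like cells, 950 to 3137 per library, correlations between members were weak to moderate. The mean within-library Pearson correlation of log counts was 0.37 for Hspa1b with Hspb1, 0.29 for Dnajb1 with Hspb1 and 0.25 for Hspa1b with Dnajb1. For Hspa1b with Hspb1 the libraries ran at 0.33, 0.58, 0.43 and 0.14, and Nanocapsule 2 was lowest for each of these pairs. The mean was 0.35 for Hspa8 with Hsp90ab1, 0.28 for Hsp90aa1 with Hsp90ab1 and 0.27 for Hspa8 with Hsp90aa1, against 0.03 for Hspa1b with Hspa8. Hsph1 had its highest value with Hsp90aa1, at 0.21, above its 0.19 with Hspa1b, 0.18 with Hspb1 and 0.15 with Dnajb1. Hsp90aa1 also had 0.15 with both Hspa1b and Hspb1. Cells of 1 library share its preparation and depth, so these are descriptions.

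Among 9063 other genes, the 8 most like the sum of Hspa1a, Hspa1b and Dnajb1 were Ccn1 (mean r 0.24), Ddit4 (0.22), Bhlhe40 (0.22), Mt1 (0.20), Ero1l (0.20), Actg1 (0.19), Atf3 (0.19) and Vegfa (0.19). These encode, among others, a matrix protein, a metallothionein, an oxidase of the endoplasmic reticulum and a growth factor for vessels. All 8 correlations were weak. Dnajb1 gave most UMIs of the summed genes, in Control 1 for instance 1572 thinned UMIs beside 196 of Hspa1b and 0 of Hspa1a.

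The wider HSF1 network and its cochaperones were a list of 42 genes, all tested in tumour-like cells. It held 0 genes called by edgeR and 7 with an unadjusted p under 0.05. Among all genes 4% were nominally higher and 3.56% nominally lower. The Nanocapsule libraries were both lower for 21 of the 42 and both higher for 4, beside 18.8% and 19.7% of all genes, and the median log2 fold was -0.07. Fkbp4, an HSP90 cochaperone, stood at 540, 543, 451 and 448 CPM (log2 fold -0.27 ± 0.08, edgeR adjusted p = 0.649). Ahsa1, which activates the ATPase of HSP90, stood at 138, 140.3, 119 and 119 CPM, and Bag1, a nucleotide exchange factor of HSP70, at 167, 158, 142 and 139. In each the Control values lay above the Nanocapsule values.

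Of the most abundant genes of that list, the polyubiquitin gene Ubb stood at 1565, 1512, 1491 and 1618 CPM, the mitochondrial chaperonin Hspd1 at 1078, 1227, 954 and 989 and its partner Hspe1 at 922, 1016, 943 and 1000.1. Sqstm1, an autophagy receptor, stood at 633, 638, 676 and 732. Only Hspd1 and Sqstm1 of these had groups without overlap, the first lower and the second higher, and neither passed the test. Such groups were seen for 38.5% of all genes.

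Immediate early genes that respond to dissociation were listed to set beside the members. Of 18, all tested, 0 were called by edgeR and 4 had an unadjusted p under 0.05: Atf3, Btg2, Klf6 and Junb. Of all genes, 4% were nominally higher and 3.56% nominally lower. Atf3, a stress-induced transcription factor, stood at 28.6, 22.9, 43.5 and 69.7 CPM (log2 fold 1.14 ± 0.25, edgeR adjusted p = 0.649). Btg2 stood at 4.57, 5.11, 3.43 and 3.06 CPM and Klf6 at 109, 85.9, 123 and 141. The most abundant, Fos, Jund, Ier3 and Jun, had log2 folds of -0.31, 0.07, 0.46 and 0.21. No common direction was seen, with 8 of 18 folds positive beside 50.4% of all genes.

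The chaperones of the endoplasmic reticulum and mitochondria, 15 genes that were all tested, also had 0 called by edgeR. An unadjusted p under 0.05 was seen for 1, beside 4% nominally higher and 3.56% nominally lower over all genes. It was the mitochondrial protease subunit Clpp (127, 117, 105 and 103 CPM). Next by p were Dnajb11 and Trap1, with log2 folds of -0.14 and -0.09. Hspa5, the HSP70 of the endoplasmic reticulum, stood at 477, 653, 555 and 646 CPM, and Hsp90b1, its HSP90, at 1044, 1240, 1079 and 1172. Their groups overlapped, as did those of Canx and Calr, the lectin chaperones, with log2 folds of -0.05 and -0.07.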

How the data were processed

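Per the submitters' processing notes the authors used Cell Ranger 2.1.1 with mm10, while the matrix headers name Cell Ranger 4; other settings are not given in the sources used here. The deposited values are raw UMI counts per gene and barcode, unfiltered. Cells were called at a 10th of the 99th percentile of the top 3000 barcodes (at least 500 UMIs and 200 genes, at most 20% mitochondrial), or at 1500 UMIs for immune classes. Clusters (scanpy 1.11.5, 2000 variable genes without the members and the HSF1 list, 30 components, Leiden resolution 1) were named from marker lists, with limits set after seeing the data; 2 clusters of called cells that broke a naming rule stayed unnamed. Scrublet marked 0.241% and 0.157% of cells, which was taken as a failed run, so no doublets were removed. UMIs were summed per library and class and tested with edgeR 4.0.16 (TMM, filterByExpr, quasi-likelihood, Benjamini-Hochberg over all genes), with DESeq2 1.42.0 as an alternative. The fits were tested on simulated data. Other alternatives were other filters, cell rules and scalings, leaving out each library and a replicate block. The members and lists were chosen with earlier results of these data known. Named genes are all 8 members, for each list the 4 most abundant and the 3 lowest by unadjusted p (no list gene passed), and the 8 genes most correlated with Hspa1a, Hspa1b and Dnajb1; further names (Junb, cluster leaders) were added after their values were seen.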

Additional observations from a re-analysis of the deposited data

Results flagged for a closer look

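Hspb1 had a different nanocapsule effect in macrophage-like than in tumour-like cells, by 2.07 log2 units (edgeR interaction test, adjusted p = 0.0041). The difference rested on 20 macrophage-like cells with 170 Hspb1 UMIs, and without Nanocapsule 1 its adjusted p was 0.0625.

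Hspb1 was also high among barcodes under 100 UMIs of Nanocapsule 1, at 64.9 unscaled CPM, against 12.8, 3.16 and 2.87 in Control 1, Control 2 and Nanocapsule 2. These barcodes entered no test between treatments. In Nanocapsule 1 Hspb1 stood at 52.2 unscaled CPM in macrophage-like cells, below that level, and at 12.7 CPM in tumour-like cells.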

How the results depend on the processing

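With 2 libraries per group, leaving 1 out leaves a lone library that is assumed to vary like the others. The same-numbered libraries deviated together (r of deviations 0.60 in tumour-like, 0.62 in all called and 0.25 in macrophage-like cells), but the labels do not say that numbers pair them. A replicate block called 1 member in tumour-like cells, Hspb1 (-0.50, edgeR adjusted p = 0.0361), with 456 genes (2.8%) called in all, and changed no other member's call. Of the other settings for tumour-like cells, leaving out cells with an immune UMI turned Hspb1 to 0.16. Over all member folds, 27 alternatives reversed a sign, and none of these folds was called.

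Leaving out each library in turn gave these ranges of log2 folds. In tumour-like cells they were -0.34 to 0.060 for Dnajb1, -0.49 to 0.040 for Hsph1, -1.48 to 0.35 for Hspb1 and -0.62 to 0.55 for Hspa1b. In all called cells they were -0.35 to 0.074 for Dnajb1, -0.51 to 0.040 for Hsph1, -1.48 to 0.28 for Hspb1 and -0.50 to 0.93 for Hspa1b. In macrophage-like cells they were -0.82 to 1.06 for Hspa1a, -0.69 to 1.56 for Hspa1b, -0.032 to 0.52 for Dnajb1, -0.24 to 0.81 for Hsph1, -0.28 to 0.50 for Hsp90aa1 and -0.13 to 0.41 for Hsp90ab1. In B-like cells they were -6.13 to 4.52 for Hspa1a, -0.86 to 0.96 for Dnajb1, -1.13 to 0.48 for Hsp90aa1 and -0.53 to 0.11 for Hsp90ab1.

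Without 1 library, members called ranged from 0 to 1 in B-like cells (Hspa1b without Nanocapsule 2, 2, 0 and 37 UMIs, with 1.03% of genes called) and from 0 to 2 for the interaction, and were 0 in the other classes. The difference in the log2 ratio of inducible to constitutive members ranged from -3.11e-05 to 0.022 in tumour-like and from -0.30 to 0.37 in macrophage-like cells. The difference in the share of tumour-like cells with an HSP70 UMI ranged from -0.62 to 2.22 points. The Hsp90ab1 level in macrophage-like over tumour-like cells was -0.80 with joint TMM scaling and -1.06 per UMI total. T-like cells were not fitted, so their alternatives were not run. The cause of these shifts was not tested, and depth limits the immune classes most. The stricter cell rule for macrophage-like cells was added after seeing the data and called 0 members. Counts of all genes called also moved with the setting. Against 0 in the edgeR test of tumour-like cells, DESeq2 called 99, no filter on low counts 6 and leaving out 1 library 1 to 69. Against 0 in all called cells, DESeq2 called 169, the block 548, no filter 2 and leaving out 1 library 1 to 67. Against 0 in macrophage-like cells, DESeq2 called 2, no filter 40 and leaving out 1 library 0 to 5. Against 3 in B-like cells, DESeq2 called 1, the block 8, no filter 20 and leaving out 1 library 8 to 29.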
